A study of Mus musculus with 18 samples.

Results

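The genes of the phagocyte NADPH oxidase and *Nox4* were followed in the adipose tissue of mice that lacked *Csn8* in adipocytes. The 6 genes, *Cybb*, *Cyba*, *Ncf1*, *Ncf4*, *Rac2* and *Nox4*, were taken by name from the 55487 genes counted in each of 18 libraries, and all 6 were found by symbol. Csn8AKO mice carried floxed *Csn8* alleles and a Cre transgene under the adiponectin promoter, which is active in adipocytes, so macrophages and the other cells of the tissue were not targeted. Ctrl mice were Csn8 f/f littermates without Cre, called WT in the labels. Subcutaneous white adipose tissue (sWAT) came from 4 Ctrl and 4 Csn8AKO mice at 12 weeks of age. Brown adipose tissue (BAT) came from 5 Ctrl and 5 Csn8AKO mice at 4 weeks. All of them were male, kept on chow and fasted for 4 h, with a library for each mouse. The comparisons asked whether the transcripts of the oxidase differed between genotypes within each tissue, and whether *Nox4* differed as the phagocyte subunits did.

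The NADPH oxidase moves electrons from NADPH across a membrane to oxygen and so makes superoxide. In neutrophils and macrophages the catalytic subunit is gp91phox, the product of *Cybb*, which is held in the membrane with p22phox, the product of *Cyba*. The oxidase is silent until its cytosolic subunits, among them p47phox (*Ncf1*) and p40phox (*Ncf4*), and the small GTPase RAC2 join it, the step that makes the oxidative burst used against microbes. NOX4 is a related catalytic subunit of fibroblasts, vascular cells and other non-phagocytic cells. It also needs p22phox but not the cytosolic subunits, is active without a stimulus and releases mainly hydrogen peroxide.

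The starts of the 2 catalytic subunit genes are shown because *Cybb* and *Nox4* are the pair contrasted here. Each sequence runs from 250 bases before the RefSeq start to 50 bases after it. Both windows are on GRCm38.p6 and lie within the span of the gene on which reads were counted. The *Cybb* window is chrX:9469275-9469574 on the minus strand and the *Nox4* window is chr7:87246399-87246698 on the plus strand. Capitals mark the only match to the letters GAGGAA, the core bound by the myeloid factor PU.1, or to their reverse complement TTCCTC.
Cybb: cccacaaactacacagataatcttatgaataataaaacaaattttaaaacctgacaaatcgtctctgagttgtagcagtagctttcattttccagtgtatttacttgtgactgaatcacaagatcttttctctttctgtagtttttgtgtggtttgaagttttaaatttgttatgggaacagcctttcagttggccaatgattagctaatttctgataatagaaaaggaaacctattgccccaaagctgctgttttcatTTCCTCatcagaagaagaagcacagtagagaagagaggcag
Nox4: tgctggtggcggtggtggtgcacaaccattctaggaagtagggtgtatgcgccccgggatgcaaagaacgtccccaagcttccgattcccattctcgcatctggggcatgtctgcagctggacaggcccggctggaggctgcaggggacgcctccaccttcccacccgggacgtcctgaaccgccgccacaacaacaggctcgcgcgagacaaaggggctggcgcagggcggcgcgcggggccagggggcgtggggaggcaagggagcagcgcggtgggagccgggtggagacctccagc
The match in *Cybb* had its first base 10 bases after the start, in the reverse complement form. The windows of *Nox4*, *Cyba* and *Ncf1* held no match on either strand, and *Ncf4* and *Rac2* had no window here. Of the 32851 RefSeq windows of this length, 28.3% held at least 1 match, so a match by itself is common.

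Total counts ran from 15835721 to 23109603 per library in sWAT and from 26658593 to 66719937 in BAT. *Cops8*, the symbol of *Csn8*, is deleted in adipocytes only in part of its exons and was counted over the whole gene. CPM here is the count scaled to the size of its library corrected by a TMM factor set within the tissue. Whether groups overlapped in CPM is stated for values scaled in this way. In sWAT, *Cops8* was 33.9 to 36.2 CPM in Ctrl and 29.2 to 36.1 in Csn8AKO mice. In BAT, *Cops8* was 36.5 to 44.6 CPM in Ctrl and 28.2 to 36.9 in Csn8AKO mice. Its log2 fold change was -0.12 in sWAT (edgeR adjusted p = 0.623) and -0.30 in BAT (adjusted p = 0.0211), with overlapping groups in both. Ribosomal RNA genes took 1.80% to 19.8% of the counts in Ctrl sWAT and 3.96% to 47.8% in Csn8AKO sWAT, the highest in replicates 3 and 4, and 0.863% to 15.1% in BAT. Ctrl replicate 1 and Csn8AKO replicate 2 of sWAT stood apart, with 299.7 and 589.3 CPM summed over 10 markers of B and T cells against 7.90 to 29.5 in the other 6 sWAT libraries. Values without these pairs of libraries are given beside the genes they bear on.

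In sWAT, *Cybb*, *Cyba* and *Ncf1* rose about 2-fold in Csn8AKO mice. *Ncf4*, *Rac2* and *Nox4* had fold changes above 0 on the log2 scale that did not pass the test. In BAT, all 6 genes rose, and the 5 phagocyte genes rose 2.60 to 3.17-fold. The test was edgeR's quasi-likelihood test with Benjamini-Hochberg adjustment over all genes tested, at an adjusted p under 0.05. Among all genes tested, 2.30% rose in sWAT and 16.0% rose in BAT at this threshold, so 3 of 6 genes in sWAT and 6 of 6 in BAT stand against those shares. The median log2 fold change of the 5 phagocyte genes was 1.05 in sWAT and 1.58 in BAT, where the medians over all genes were 0.03 and 0.01. In whole tissue, more cells of a type and more RNA per cell cannot be told apart.

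*Cybb* was 33.7, 32.3, 31.8 and 28.9 CPM in the 4 Ctrl sWAT libraries and 78.7, 56.9, 78.5 and 49.2 CPM in the 4 Csn8AKO libraries. The lowest Csn8AKO library was above the highest Ctrl library. The log2 fold change was 1.06 ± 0.17 (SE, adjusted p = 0.00788). In BAT, *Cybb* was 7.01, 4.91, 2.44, 4.32 and 3.50 CPM in Ctrl and 14.4, 10.4, 16.5, 13.5 and 15.2 CPM in Csn8AKO mice. The groups were again apart, and Ctrl replicate 3 was the lowest library. This gave a log2 fold change of 1.67 ± 0.23 (SE, adjusted p = 0.000161). Groups that did not overlap, with Csn8AKO higher, were seen for 5.80% of all genes tested in sWAT and for 10.1% in BAT. *Cybb* lies at chrX:9435252-9487771 on the minus strand, and no other gene of the annotation overlaps it.

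*Cyba*, which encodes the membrane partner of both gp91phox and NOX4, was 48.2, 32.7, 32.4 and 36.8 CPM in Ctrl sWAT and 84.1, 78.9, 94.3 and 53.8 CPM in Csn8AKO sWAT. The groups did not overlap, although Ctrl replicate 1 and Csn8AKO replicate 4 were close to each other. *Cyba* had a log2 fold change of 1.05 ± 0.20 (SE, adjusted p = 0.0153). Leaving out Ctrl replicate 2, 3 or 4 or Csn8AKO replicate 3 raised the adjusted p to between 0.0576 and 0.0611. In BAT, *Cyba* was 6.49, 4.73, 4.73, 5.83 and 4.94 CPM in Ctrl and 19.8, 13.4, 14.9, 16.9 and 17.4 CPM in Csn8AKO mice. Every Csn8AKO library was above every Ctrl library by a wide gap. This was a log2 fold change of 1.63 ± 0.13 (SE, adjusted p = 1.71e-06). *Cyba* lies at chr8:122424776-122432930 on the minus strand and is overlapped on the plus strand by *Gm20388*, which had a count of 0.

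*Ncf1*, which encodes the organizer p47phox, was 22.4, 20.9, 27.5 and 27.1 CPM in Ctrl sWAT and 55.3, 59.2, 55.6 and 40.2 CPM in Csn8AKO sWAT. The groups did not overlap, and the log2 fold change was 1.11 ± 0.16 (SE, adjusted p = 0.00531). In BAT it was 1.89, 2.20, 2.03, 2.80 and 2.11 CPM in Ctrl and 5.04, 5.09, 5.77, 5.64 and 8.59 CPM in Csn8AKO mice. The Csn8AKO libraries were alike except replicate 5, which was higher. For *Ncf1* in BAT this gave a log2 fold change of 1.44 ± 0.18 (SE, adjusted p = 4.2e-05). *Ncf1* lies at chr5:134220053-134229625 on the minus strand. *Gtf2ird2* overlaps it on the other strand and had 5281 counts over all libraries, and since the use of strand in counting is not stated, reads of the overlap cannot be assigned with certainty. With scaling by library size alone, *Cybb*, *Cyba* and *Ncf1* kept log2 fold changes of 1.00, 0.99 and 1.08 in sWAT, with adjusted p of 0.148, 0.19 and 0.124. Without the 2 sWAT libraries of highest ribosomal RNA share their adjusted p were 0.0336, 0.0396 and 0.0254, and without the 2 of highest B and T cell markers all 3 also passed the test.

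**Figure D1:**
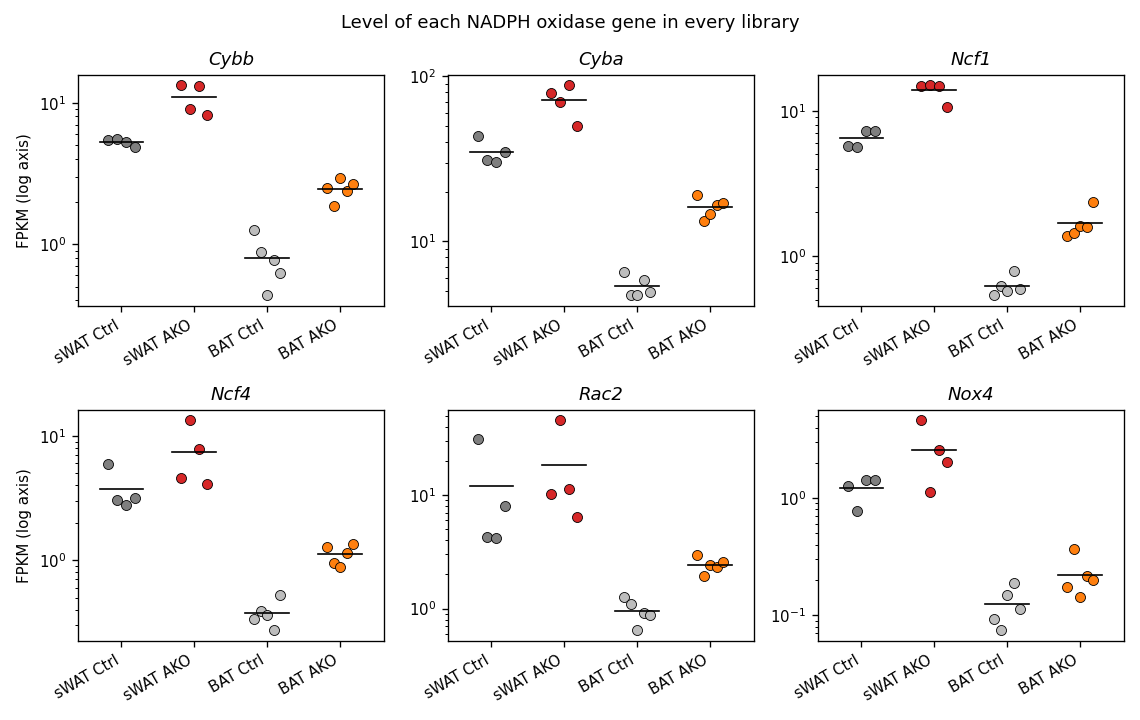
Level of each of the 6 genes in every library, in FPKM on a log axis, with 1 point per mouse and a bar at the group mean, for Ctrl and Csn8AKO mice in sWAT (n = 4 per group) and BAT (n = 5 per group). Each gene was lower in all BAT libraries than in all sWAT libraries of the same genotype, and 1 Ctrl and 1 Csn8AKO library of sWAT stood far above the others for *Rac2*.

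*Ncf4* encodes p40phox, which binds phosphoinositide on the phagosome. It was 12.7, 6.28, 5.80 and 6.59 CPM in Ctrl sWAT and 9.35, 29.2, 16.2 and 8.53 CPM in Csn8AKO sWAT. The groups overlapped through Ctrl replicate 1, and Csn8AKO replicate 2 was the highest library. The log2 fold change was 1.01 ± 0.42 (SE, adjusted p = 0.217). Without Ctrl replicate 1 and Csn8AKO replicate 2, the libraries of high B and T cell markers, it was 0.87 ± 0.26 (SE, adjusted p = 0.0603). Without the 2 sWAT libraries of highest ribosomal RNA share it was 1.27 ± 0.48 (SE, edgeR adjusted p = 0.233). In BAT, *Ncf4* was 0.646, 0.762, 0.710, 0.535 and 1.03 CPM in Ctrl and 2.56, 1.85, 1.72, 2.23 and 2.67 CPM in Csn8AKO mice. The groups were apart at these low levels, with a log2 fold change of 1.58 ± 0.21 (SE, adjusted p = 8.72e-05).

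*Rac2* encodes the GTPase of blood cells that completes the phagocyte oxidase, and lymphocytes express it as well. It was 103.1, 13.3, 13.6 and 25.4 CPM in Ctrl sWAT and 32.2, 153.9, 36.0 and 20.7 CPM in Csn8AKO sWAT. The 2 libraries over 100 CPM were those of high B and T cell markers, and no other member differed as much between libraries of a group. The log2 fold change was 0.64 ± 0.94 (SE, adjusted p = 0.766), turned to -0.39 without Csn8AKO replicate 2 and was 1.80 without Ctrl replicate 1. Without both of these libraries it was 0.77 ± 0.30 (SE, adjusted p = 0.162). Without the 2 sWAT libraries of highest ribosomal RNA share it was 1.23 ± 1.06 (SE, edgeR adjusted p = 0.606). In BAT, where the summed B and T cell markers were low in every library, *Rac2* was 3.72, 3.29, 1.94, 2.73 and 2.63 CPM in Ctrl and 9.06, 5.83, 7.29, 7.06 and 7.85 CPM in Csn8AKO mice. The groups were apart and the log2 fold change was 1.38 ± 0.18 (SE, adjusted p = 6.14e-05). *Ncf4* at chr15:78244801-78262580 and *Rac2* at chr15:78559167-78572783 are 296587 bases apart, with 10 protein-coding genes between them.

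*Nox4* was 11.5, 6.68, 12.4 and 12.4 CPM in Ctrl sWAT and 40.0, 10.3, 22.3 and 18.0 CPM in Csn8AKO sWAT. The groups overlapped through Csn8AKO replicate 2, and Csn8AKO replicate 1 was the highest library. The log2 fold change was 1.08 ± 0.38 (SE, adjusted p = 0.15), and without Csn8AKO replicate 2 it was 1.32 with an adjusted p of 0.0351. Without both libraries of high B and T cell markers it was 1.36 ± 0.35 (SE, edgeR adjusted p = 0.0536). Without the 2 sWAT libraries of highest ribosomal RNA share it was 1.21 (edgeR adjusted p = 0.278). In BAT, *Nox4* was 0.750, 0.610, 1.23, 1.55 and 0.920 CPM in Ctrl and 1.45, 3.03, 1.17, 1.79 and 1.67 CPM in Csn8AKO mice. The groups overlapped, and Csn8AKO replicate 2 alone was clear of the Ctrl range by a wide gap. The log2 fold change was 0.83 ± 0.29 (SE, adjusted p = 0.0435). The adjusted p went above 0.05 in 7 of the 10 fits that left out 1 library, up to 0.105 without Csn8AKO replicate 2, and to 0.194, with a log2 fold change of 0.49, when Csn8AKO replicate 2 and Ctrl replicate 1, the libraries of highest ribosomal RNA share of their genotypes, were both left out. The rise of *Nox4* in BAT therefore held only in some of the fits, while *Cybb*, *Cyba*, *Ncf1* and *Ncf4* passed the test in BAT in all 20 alternative fits and *Rac2* in 19 of 20.

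**Figure D2:**
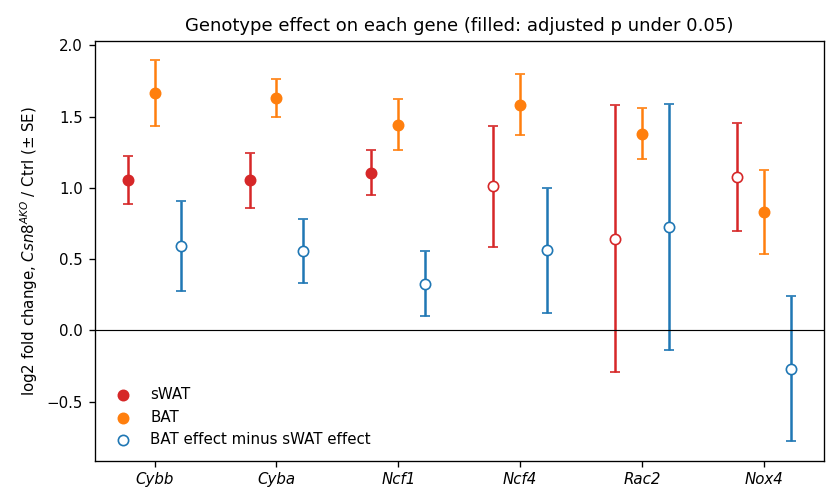
Log2 fold change of each gene in Csn8AKO against Ctrl mice in sWAT and in BAT, and the BAT change minus the sWAT change, with bars of 1 SE and filled points for an adjusted p under 0.05 in edgeR. The points for *Cybb*, *Cyba* and *Ncf1* are filled in both tissues, those for *Ncf4*, *Rac2* and *Nox4* in BAT only, and no point of the difference between tissues is filled.

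The difference between the genotype effects of the tissues was tested as an interaction over all 18 libraries. For the phagocyte genes the BAT change minus the sWAT change was 0.59 ± 0.31 for *Cybb*, 0.56 ± 0.22 for *Cyba*, 0.33 ± 0.23 for *Ncf1*, 0.56 ± 0.44 for *Ncf4* and 0.73 ± 0.86 for *Rac2* (log2, SE). For *Nox4* it was -0.27 ± 0.51. None of the 6 passed the test in edgeR, with adjusted p from 0.222 to 0.868, nor in DESeq2 or limma, and 1 of them, *Cyba*, had an unadjusted p under 0.05 (0.0216). Of all genes tested, 2.36% passed. So the calls of *Ncf4*, *Rac2* and *Nox4* in BAT and not in sWAT are not shown to be a difference between tissues.

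Levels of different genes and tissues were compared per length, as FPKM (CPM per kilobase of counted gene length). In Ctrl sWAT the order of the mean levels was *Cyba* at 34.8 ± 6.10, *Rac2* at 11.9 ± 13.0, *Ncf1* at 6.46 ± 0.90, *Cybb* at 5.27 ± 0.29, *Ncf4* at 3.74 ± 1.46 and *Nox4* at 1.23 ± 0.30 FPKM (SD, n = 4). *Rac2* without its 1 high library lay between 4.23 and 8.01 FPKM, so its place among *Ncf1*, *Cybb* and *Ncf4* was within the spread. The range of *Ncf1* lay above that of *Cybb*, *Cybb* and *Ncf4* overlapped, and *Cyba* and *Nox4* were apart from *Ncf1*, *Cybb* and *Ncf4*. In Csn8AKO sWAT the means were 72.0 ± 16.4 for *Cyba*, 18.5 ± 18.4 for *Rac2*, 13.8 ± 2.11 for *Ncf1*, 10.9 ± 2.67 for *Cybb*, 7.46 ± 4.29 for *Ncf4* and 2.59 ± 1.48 for *Nox4* (SD, n = 4), where all neighbours but *Cyba* and *Rac2* overlapped. In Ctrl BAT the order was *Cyba* at 5.33 ± 0.80, *Rac2* at 0.956 ± 0.23, *Cybb* at 0.792 ± 0.31, *Ncf1* at 0.624 ± 0.098, *Ncf4* at 0.377 ± 0.093 and *Nox4* at 0.124 ± 0.046 FPKM (SD, n = 5). *Rac2*, *Cybb* and *Ncf1* overlapped there, and while *Cyba* lay above and *Nox4* below all the others. In Csn8AKO BAT the means were 16.2 ± 2.24 for *Cyba*, 2.46 ± 0.40 for *Cybb*, 2.44 ± 0.36 for *Rac2*, 1.68 ± 0.40 for *Ncf1*, 1.11 ± 0.20 for *Ncf4* and 0.220 ± 0.088 for *Nox4* (SD, n = 5). *Cyba* was the highest and *Nox4* the lowest by mean in each of the 4 groups.

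All 6 genes were higher in sWAT than in BAT, with no overlap between the libraries of the same genotype. The sWAT mean FPKM was 6.54 to 12.5 times the BAT mean in Ctrl and 4.44 to 11.8 times in Csn8AKO mice. The ratio of 12.5 was that of *Rac2*, whose Ctrl sWAT mean held replicate 1 at 31.2 FPKM, with the others at 4.23 to 8.01. The next highest Ctrl ratio was 10.4, for *Ncf1*. Since sWAT was taken at 12 weeks and BAT at 4 weeks, tissue and age cannot be told apart. *Cybb* was above *Nox4* in FPKM in 18 of 18 libraries, by 3.39 to 7.05-fold in Ctrl sWAT, 2.87 to 8.08-fold in Csn8AKO sWAT, 2.90 to 13.6-fold in Ctrl BAT and 5.00 to 20.6-fold in Csn8AKO BAT. The log2 of that ratio was 2.15 ± 0.47 and 2.22 ± 0.63 in Ctrl and Csn8AKO sWAT (SD, n = 4) and 2.67 ± 0.97 and 3.55 ± 0.76 in Ctrl and Csn8AKO BAT (SD, n = 5). The genotypes overlapped in both tissues. *Cyba* was 5.02 to 10.8 times *Cybb* in FPKM over the 18 libraries.

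Macrophages carry the oxidase, and the markers of these and other cells that rose or fell were counted. The shares of all genes rising, 2.30% in sWAT and 16.0% in BAT, apply to these counts too. So do the shares falling, 3.00% in sWAT and 15.8% in BAT. Of 14 macrophage markers, 8 rose and none fell in sWAT, where their summed level was 1374 to 1865 CPM in Ctrl and 2200 to 3750 CPM in Csn8AKO mice. In BAT 12 of 14 rose and none fell, with sums of 149.2 to 203.2 and 468.1 to 655.4 CPM. *Cd163* and *Cd14* passed the test in neither tissue. Their log2 fold changes were 0.145 and -0.238 in sWAT and 0.222 and -0.256 in BAT. *Adgre1*, the macrophage marker F4/80, had log2 fold changes of 1.31 ± 0.14 in sWAT (SE, adjusted p = 0.0018) and 1.63 ± 0.16 in BAT (adjusted p = 6.29e-06). *Ptprc*, the leukocyte antigen CD45, had log2 fold changes of 0.91 ± 0.80 in sWAT (adjusted p = 0.597) and 1.42 ± 0.13 in BAT (adjusted p = 3.1e-06). Without the 2 sWAT libraries of high B and T cell markers, *Ptprc* rose by 0.99 ± 0.19 there (SE, edgeR adjusted p = 0.00982). Without the 2 of highest ribosomal RNA share its change was 1.51 (edgeR adjusted p = 0.431). Of 11 neutrophil markers, the other cells rich in this oxidase, only 4 were counted well enough to test in sWAT and 3 in BAT, and 1 rose in each tissue. Their sums were 8.20 to 10.1 CPM in Ctrl and 14.5 to 30.1 CPM in Csn8AKO sWAT, without overlap. In BAT the sums were 2.39 to 4.00 and 3.11 to 5.84 CPM, and *Ly6g* was at 0 in every sWAT library. The log2 fold changes in sWAT were 1.18 for *Csf3r*, 2.18 for *S100a8*, 0.75 for *Retnlg* and -0.60 for *Elane*. In BAT they were 1.14 for *Csf3r*, 0.81 for *S100a9* and -1.07 for *Elane*. Only *Csf3r* passed the test, in both tissues. In BAT, all 5 fibroblast markers rose too, from sums of 414.6 to 699.2 CPM to sums of 995.8 to 2040 CPM, as did 4 of 6 markers of smooth muscle and pericytes and 5 of 8 of monocytes and dendritic cells. All 4 mast cell markers tested rose in BAT, where their sums were 1.66 to 4.11 CPM in Ctrl and 15.3 to 30.2 CPM in Csn8AKO mice. In sWAT 0 of 5 fibroblast markers passed the test in edgeR, and 3 had an unadjusted p under 0.05. Of 7 adipocyte markers 2 fell in sWAT, beside 3.00% of all genes. Their sums there were 9208 to 13770 CPM in Ctrl and 4069 to 9047 CPM in Csn8AKO mice, without overlap. In BAT 1 of the 7 fell, beside 15.8% of all genes. The BAT sums were 7793 to 9115 CPM in Ctrl and 8218 to 10060 CPM in Csn8AKO mice, and they overlapped. The part of these cells in the change of the members was not tested.

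The 5 phagocyte genes were therefore also set against *Adgre1* and *Ptprc* in each library, as a log2 ratio of counts. The ratio of *Cybb* to *Adgre1* was -0.16 ± 0.22 in Ctrl and -0.43 ± 0.23 in Csn8AKO sWAT (SD, n = 4, exact permutation p = 0.114, adjusted p = 0.81). In BAT it was -0.45 ± 0.27 in Ctrl and -0.38 ± 0.20 in Csn8AKO mice (SD, n = 5, exact permutation p = 0.619, adjusted p = 0.944). Of the 10 ratios per tissue, none passed an adjusted p of 0.05 in the two-sided exact permutation test, whose smallest possible p is 0.0286 in sWAT and 0.00794 in BAT. The lowest p was that of *Rac2* to *Adgre1* in BAT, which lay between -1.19 and -0.89 in Ctrl and between -1.41 and -1.16 in Csn8AKO mice, a difference of -0.27 (exact permutation p = 0.0159, adjusted p = 0.159). Differences against *Adgre1* ran from -0.56 to -0.20 in sWAT and from -0.27 to 0.07 in BAT. Against *Ptprc* they ran from -0.19 to 0.17 in sWAT, with wide spread from the 2 libraries of high B and T cell markers, and from -0.03 to 0.31 in BAT. Since the smallest possible p, adjusted over 10 ratios, stays above 0.05 when a single ratio reaches it, this test could not call 1 ratio alone, and its outcome does not show that the ratios were alike. The ratio of *Rac2* to *Adgre1* in BAT stayed below 0 in difference, from -0.31 to -0.23, whichever library was left out.

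**Figure D3:**
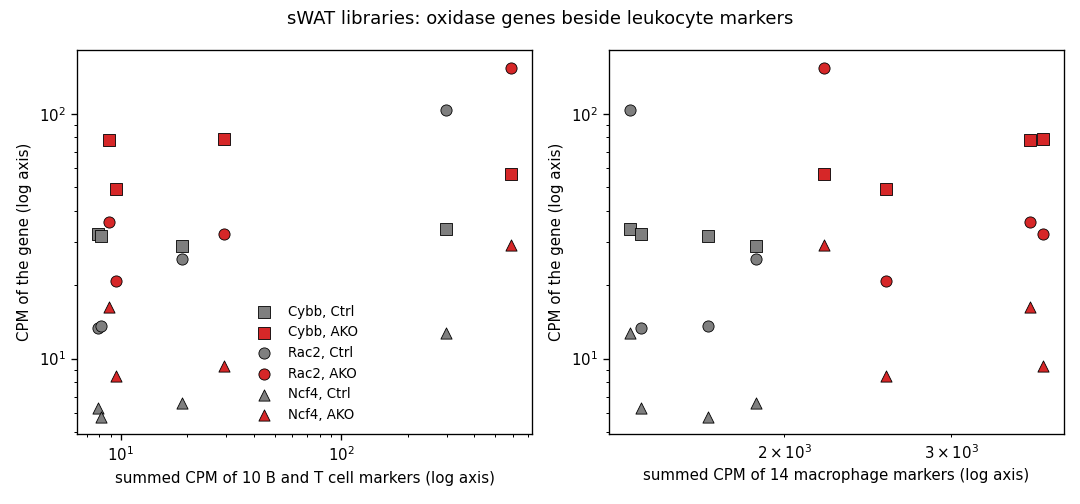
*Cybb*, *Rac2* and *Ncf4* in each of the 8 sWAT libraries, in CPM on a log axis, against the summed CPM of 10 B and T cell markers (left) and of 14 macrophage markers (right), both on log axes, with Ctrl in grey and Csn8AKO in red. The 2 libraries with the highest *Rac2* in their groups, at 103.1 and 153.9 CPM, are the 2 at the right end of the B and T cell axis, while for *Cybb* the Csn8AKO libraries lie above the Ctrl libraries throughout.

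The rest of the pathway was described with a list of 39 other genes for oxidase enzymes, partners, activators, inhibitors of the Rac cycle and enzymes that remove superoxide and peroxide. In sWAT, 35 were tested, 5 rose and 1 fell, beside 2.30% rising and 3.00% falling among all genes tested, and their median log2 fold change was 0.43. In BAT, 34 were tested, 15 rose and 4 fell, with a median of 0.26, beside 16.0% rising and 15.8% falling among all genes tested. Without Ctrl replicate 1 and Csn8AKO replicate 2, 13 of the list rose in sWAT and 1 fell, beside 5.35% rising among all genes. Without the 2 sWAT libraries of highest ribosomal RNA share, both of them Csn8AKO, 1 rose and none fell. Fewer of all genes were called in that fit too, 130 rising and 252 falling, against 434 and 566 with all sWAT libraries. The sWAT count of the list, like that of all genes, therefore depended on which libraries were used.

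*Sh3pxd2b*, a scaffold related to p47phox, rose in both tissues, with log2 fold changes of 0.78 ± 0.16 in sWAT (SE, adjusted p = 0.0258) and 1.05 ± 0.15 in BAT (adjusted p = 0.000154). Its sWAT call was lost without the 2 libraries of highest ribosomal RNA share, at 0.66 (adjusted p = 0.163). *Hvcn1*, the proton channel that balances charge during the burst, had log2 fold changes of 0.77 ± 0.66 in sWAT (adjusted p = 0.59) and 1.62 ± 0.26 in BAT (adjusted p = 0.00035). *Noxo1*, the organizer of the NOX1 oxidase, fell by 1.33 on the log2 scale in BAT, and it overlaps the much more strongly counted *Tbl3* on the other strand. *Rac1*, the broadly expressed relative of *Rac2*, had log2 fold changes of 0.11 in sWAT and 0.04 in BAT with adjusted p of 0.715 and 0.709. *Cybc1*, a chaperone of gp91phox, had log2 fold changes of 0.47 and 0.04 with adjusted p of 0.324 and 0.845.

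Among the other oxidases, *Duox1* had log2 fold changes of 0.80 in sWAT and 0.62 in BAT, *Nox1* of -1.15 in BAT and *Duox2* of 0.10 in sWAT, and none of these passed the test in edgeR at the adjusted threshold. *Nox1* passed it in BAT, at -1.81 (adjusted p = 0.00767), without the library of highest ribosomal RNA share of each genotype. *Nox3* was too low to test in both tissues. Of 14 activators, 3 rose and none fell in sWAT, beside 2.30% rising and 3.00% falling among all genes tested. In BAT 10 of them rose and 1 fell, beside 16.0% rising and 15.8% falling among all genes tested. *Prkcd*, a kinase that phosphorylates p47phox, rose by 1.06 in sWAT (adjusted p = 0.0082) and by 0.96 in BAT (adjusted p = 8.56e-05). *Syk*, the kinase below Fc receptors and integrins, lay between 66.7 and 106.4 CPM in Ctrl and between 148.2 and 264.4 CPM in Csn8AKO sWAT, and between 5.26 and 7.03 CPM in Ctrl and between 17.0 and 38.7 CPM in Csn8AKO BAT. Its log2 fold changes were 0.97 ± 0.22 in sWAT (adjusted p = 0.0347) and 2.06 ± 0.18 in BAT (adjusted p = 3.57e-06). Its difference between tissues of 1.08 passed the interaction test over all 18 libraries (adjusted p = 0.0446). It was the only gene to pass of 35 list genes tested, beside 2.36% passing among all genes tested. Its sWAT call was lost without the 2 libraries of highest ribosomal RNA share, at 1.18 (adjusted p = 0.0575). Without the 2 sWAT libraries of high B and T cell markers, *Tiam1* at -0.98 (adjusted p = 0.0421) and *Gpx1* at -0.66 (adjusted p = 0.026) passed the interaction test as well as *Syk*. More of all genes passed with an interaction below 0 in that fit too. The Src family kinase *Fgr* rose by 2.28 in BAT, as did *Dock2*, an exchange factor for Rac, by 1.54. *Tiam1*, another exchange factor for Rac, fell by 0.88 in BAT.

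Both inhibitors of the Rac cycle rose in BAT, *Arhgdia* by 0.37 and *Arhgdib* by 0.96, beside 16.0% rising among all genes tested. Of 6 genes for the removal of superoxide and peroxide, 1 fell in sWAT and 2 fell in BAT, beside 3.00% and 15.8% of all genes, and none rose, beside 2.30% and 16.0%. *Sod1*, the cytosolic superoxide dismutase, was 332.2 to 521.8 CPM in Ctrl and 113.6 to 230.9 CPM in Csn8AKO sWAT and fell by 1.07 on the log2 scale (adjusted p = 0.0333). Without the 2 sWAT libraries of highest ribosomal RNA share, the change was -1.30 with an adjusted p of 0.0955. It overlaps *Scaf4* on the other strand. In BAT, *Sod3*, the extracellular superoxide dismutase, fell by 0.57 (adjusted p = 0.00687) and *Gpx1*, a glutathione peroxidase, fell by 0.71 (adjusted p = 0.000132). Each of these values is from the edgeR test.

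**Figure D4:**
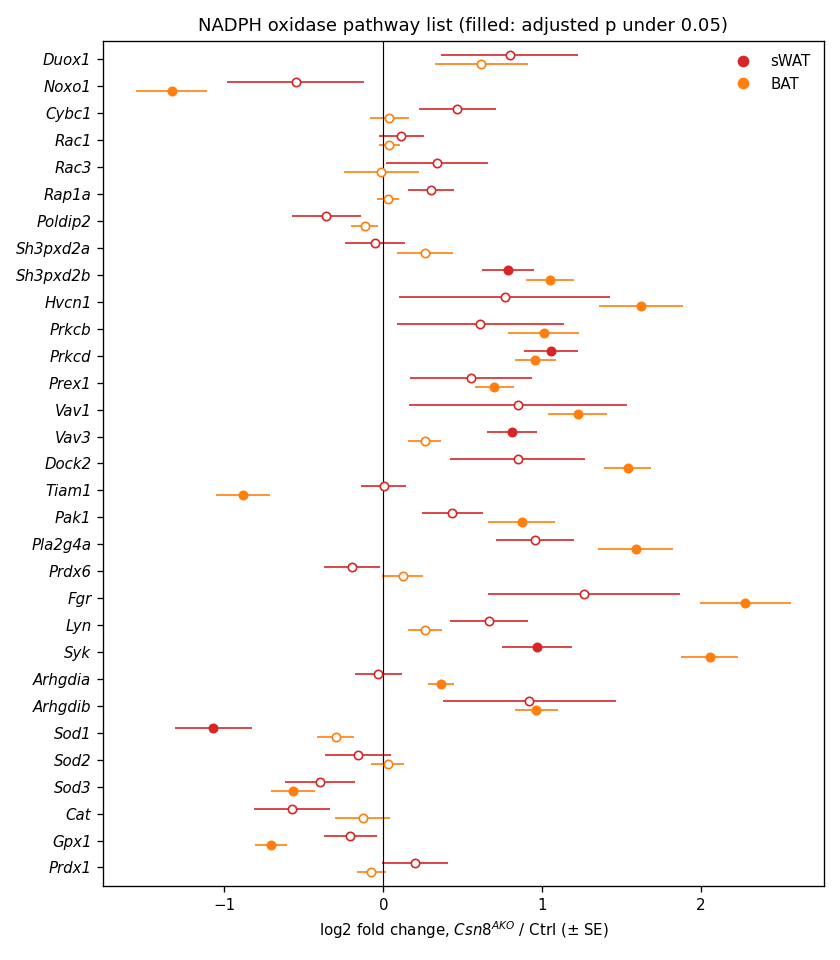
Log2 fold change in Csn8AKO against Ctrl mice for 31 genes of the pathway list tested in both tissues, in sWAT (red) and BAT (orange), with bars of 1 SE and filled points for an adjusted p under 0.05 in edgeR. *Sh3pxd2b*, *Prkcd* and *Syk* have filled points above 0 in both tissues, and *Fgr* at 2.28 in BAT is the highest point.

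The genes whose centred log2 CPM over the 18 libraries came closest to that of *Cybb* were *Adgre1*, *Fcer1g* and *Pirb*, at root-mean-square differences of 0.22, 0.24 and 0.24, among 12217 candidate genes. *Fcer1g* encodes the Fc receptor gamma chain and *Pirb* an inhibitory receptor of myeloid cells. Of the members, *Cyba* was at 0.25 from *Cybb*, *Ncf1* at 0.48, *Ncf4* at 0.55, *Nox4* at 0.73 and *Rac2* at 0.81. The genes closest to *Nox4* were *Pamr1*, *Arhgap20* and *Ms4a4d*, at 0.34, 0.35 and 0.38, and among the members *Ncf1* was closest to it at 0.52. The root-mean-square of the genes themselves was 1.40 for *Cybb* and 1.59 for *Nox4*. The points share tissue, age and genotype, and all 6 genes differed between sWAT and BAT, so no test was made of the likeness.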

How the data were processed

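RNA was extracted from sWAT and BAT, depleted of ribosomal RNA and sequenced as paired reads by the authors, who aligned them with STAR and counted uniquely aligned, unambiguous reads on Ensembl genes (GRCm38) with featureCounts. Use of strand in counting is not given in the sources used here. The authors deposited for each library an unnormalized count per gene. They also deposited CPM (scaled to the counted reads of the library). They deposited FPKM (CPM per kilobase of gene length) and TPM as well. Only the deposited count and gene length were used here, and all CPM and FPKM in the text were computed again with TMM factors. Of 55487 genes, 55141 could be given a symbol, and 54907 had identical positions in M21.

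Genotypes were compared within each tissue with edgeR 4.0.16 in R 4.3.3 (robust quasi-likelihood, TMM, genes filtered by filterByExpr at 10 counts and 15 in total), adjusted by Benjamini-Hochberg over all genes tested. CPM used factors set within a tissue and FPKM factors set over all 18 libraries. SE was the log2 fold change divided by the square root of F. Ratios within libraries used counts with 0.5 added. Likeness was taken over genes with an average log2 CPM of at least 1. Each mouse gave 1 library, so p-values reflect the spread between mice. The alternatives were RLE factors, library size alone, other filters, limma 3.58.1 (voom), DESeq2 1.42.0, removal of ribosomal RNA genes, a replicate block, a fit over all groups and leaving out libraries. The pairs of libraries left out together were chosen after seeing the data. On simulated data with 200 genes changed by 2 on the log2 scale, 81% of them were found in sWAT and 98.5% in BAT. That change is larger than the change of any member, so these shares do not tell how often changes of the members' size are found. Counting precision was limited for *Nox4* and *Ncf4* in BAT. The members and lists were chosen with earlier results of these data known. All 6 members, the pathway genes that passed the test in either tissue, the other oxidases and their partners, and the 3 genes closest to *Cybb* and to *Nox4* could be named, except 2 genes of the pathway list that are counted but not reported here.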

Additional observations from a re-analysis of the deposited data

Results flagged for a closer look

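Of 24 groups of 4 or 5 libraries, 4 for each gene, 5 held a library far from the others by Dixon's criterion, which chance meets in about 1 of 20 groups. *Rac2* was at 103.1 CPM in Ctrl replicate 1 of sWAT, where the other Ctrl libraries were at 13.3 to 25.4 CPM. It was at 153.9 CPM in Csn8AKO replicate 2 of sWAT, where the others were at 20.7 to 36.0 CPM. *Ncf4* was at 12.7 CPM in Ctrl replicate 1 of sWAT, against 5.80 to 6.59 CPM. These are the libraries with 299.7 and 589.3 CPM summed over B and T cell markers. *Nox4* was at 6.68 CPM in Ctrl replicate 2 of sWAT, below the 11.5 to 12.4 CPM of the other Ctrl libraries. *Ncf1* was at 8.59 CPM in Csn8AKO replicate 5 of BAT, above 5.04 to 5.77 CPM. The causes were not tested.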

How the results depend on the processing

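In BAT, *Cybb*, *Cyba*, *Ncf1* and *Ncf4* passed the test in all 20 alternatives, and no member reversed there. *Rac2* lost the call in the fit over all 4 groups (1.36, adjusted p = 0.116). *Nox4* in BAT lost it in that fit (0.81), under the replicate block (0.83, adjusted p = 0.0781), without the 2 libraries of highest ribosomal RNA share (0.49), and in 7 of 10 leave-one-out fits, at 0.59 to 0.91, while the 10 fits together ranged from 0.59 to 1.04. In sWAT, scaling by library size alone gave *Cybb* 1.00 (adjusted p = 0.148), *Cyba* 0.99 (0.19) and *Ncf1* 1.08 (0.124). The replicate block gave *Cyba* 1.04 (adjusted p = 0.0538), and leaving out 1 library moved it from 0.94 to 1.20. *Nox4* passed in sWAT with DESeq2 (1.09, adjusted p = 0.0412), and leaving out 1 library moved it from 0.65 to 1.32 and *Rac2* from -0.39 to 1.80. The interaction of *Nox4* ran from -0.53 to 0.18 and that of *Rac2* from -0.38 to 1.73 when 1 library was left out. The labels do not say whether replicate numbers pair the mice. Deviations of same-numbered libraries from their group means correlated from -0.416 to 0.241 in sWAT and from -0.131 to 0.143 in BAT. Ctrl replicate 1 of sWAT correlated best with Csn8AKO replicate 2 (0.695), the other library of high B and T cell markers. Taken about means of few libraries, these correlations cannot show whether mice were paired. No other call of a member changed under the block.

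Genes rising in sWAT, 434 in all, were 106 with library size alone, 912 with DESeq2, 1077 with limma, 134 with the block, 1044 in the fit over all groups, 993 without the libraries of high B and T cell markers, 130 without those of high ribosomal RNA, and 147 to 804 leaving out 1 library. Genes falling, 566 in all, were 328, 1034, 1078, 165, 1419 and, without high ribosomal RNA, 252, and 179 to 673 leaving out 1 library. Of the pathway list, 0 rose in sWAT with library size alone and 0 with the block, 8 in the fit over all groups, 13 without high B and T cell markers, 1 without high ribosomal RNA, and 2 to 6 leaving out 1 library. In BAT, library size alone gave 4183 genes rising and 2087 falling, against 3585 and 3536, and moved the median log2 fold change of all genes to 0.14, which is below the changes of the 6 genes. Of the list, 7 fell in BAT without the libraries of highest ribosomal RNA share and 4 to 7 leaving out 1 library. Interactions below 0, 170 in all, were 39 with library size alone (494 above 0, median of all genes 0.21), 355 with DESeq2, 331 with limma, 89 with the block, 276 without high B and T cell markers and 103 to 291 leaving out 1 library. Interactions above 0, 362 in all, were 737 with DESeq2, 572 with limma and 208 with the block.

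Leaving out 1 library turned the sign of differences in log2 ratio that had not passed the test. To *Ptprc* in sWAT, *Cybb* ran from -0.43 to 0.69, *Cyba* from -0.33 to 0.63, *Ncf1* from -0.43 to 0.64 and *Ncf4* from -0.33 to 0.16, and to *Adgre1* *Rac2* ran from -1.26 to 0.13. In BAT, *Ncf1* ran from -0.083 to 0.084 and *Rac2* from -0.092 to 0.035 to *Ptprc*, and to *Adgre1* *Cybb* ran from -0.016 to 0.18, *Cyba* from -0.13 to 0.088 and *Ncf4* from -0.21 to 0.087. *Nox4* in BAT rested on 29 to 131 counts per library and *Ncf4* in BAT on 25 to 163, which limits the precision of both.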
